A study of Mus musculus with 9 samples.

Results

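The genes described here are 9 members of the Hoxa cluster, Hoxa2, Hoxa3, Hoxa4, Hoxa5, Hoxa6, Hoxa7, Hoxa9, Hoxa10 and Hoxa11, taken by name from the 37980 mouse genes of the table and followed in their order along the chromosome. All 9 had at least 1 count, and 7 passed the expression filter and were tested. The study asked how NA, a fusion of the nucleoporin gene Nup98 with the homeodomain of Hoxa10 (Nup98-Hoxa10hd), alters progenitor cells that were transplanted as multipotent progenitors (MPPs). RNA was sequenced from 4 samples of NA MPs and 5 samples of WT MPs, where MPs are myeloid progenitors, the Lin-c-kit+Sca1- cells of bone marrow, and each sample held 100000 sorted cells. All samples were labelled C57BL/6. The Tdtomato+ cells of irradiated recipients gave the NA MPs, after transplantation of MPPs in which NA was expressed from the Rosa26 locus after removal of a stop cassette by Vav-Cre, which acts across blood cells. WT MPs were sorted as CD45.2+ cells from recipients of MPPs without NA. Recipients of both groups also received helper bone marrow, and the study elsewhere describes recipients as CD45.2+ and WT donor cells as CD45.1+, so the origin of the WT MPs cannot be told. The sort is placed at 3 months after transplantation by the labels and at 4 months by the methods. The sources do not say whether each sample came from a separate mouse, so p-values measure the spread between these samples, which may be technical.

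Hox genes encode transcription factors that bind DNA through a homeodomain and set position along the body axis. Each mammalian cluster reads in a single direction, and in the embryo the genes are switched on in the order in which they lie, a property called colinearity. In blood, Hoxa genes are known to be highest in stem and early progenitor cells and to decline as cells mature, and Hoxa9 and its cofactors are known for driving self-renewal in myeloid leukaemia, including leukaemias with NUP98 fusions.

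In GENCODE M21 (GRCm38, the build that the labels call mm10) the members lie on the minus strand of chromosome 6, so that the low-numbered genes come first on the map and are the downstream end of the cluster in the direction of transcription. Hoxa2 spans chr6:52162417-52164831, Hoxa3 chr6:52169062-52213336 and Hoxa4 chr6:52189671-52191753. Hoxa5 spans chr6:52201754-52204587, Hoxa6 chr6:52206288-52208722 and Hoxa7 chr6:52214491-52221854. Hoxa9 spans chr6:52223100-52231089, Hoxa10 chr6:52231197-52240854 and Hoxa11 chr6:52242106-52245810. The annotated span of Hoxa3 therefore runs across those of Hoxa4, Hoxa5 and Hoxa6. Hoxa5, Hoxa6 and Hoxa10 share no exonic base with another gene. Hoxa2 shares 15.0% of its exonic bases and Hoxa3 8.0% with Gm28308, a transcript on the same strand that is annotated across both. On the opposite strand, 25.4% of the exonic bases of Hoxa3, 16.0% of Hoxa4, 20.4% of Hoxa7 and 35.0% of Hoxa11 are shared with antisense or divergent transcripts. Whether reads were counted by strand is not given in the sources used here, so reads of these members and of their partners cannot be told apart where they overlap. Gm28308, and Gm29430, the only partner of Hoxa4, are not among the genes with deposited values. The annotation used for counting may thus have differed from GENCODE M21, and these overlaps need not describe how reads were assigned. Expected counts that were not whole numbers, which arise where reads are split between genes, occurred for Hoxa2 in 4 samples, for Hoxa3 in 3 and for Hoxa9 in 3, and for no other member.

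The start regions of the members differ in base composition, and 4 of them are shown because they belong to the gene at the low-numbered end, to the most abundant gene, to the gene with the largest change and to a gene free of shared exons. RefSeq (GRCm38.p6) gave 9 windows of 300 bases, from 250 before to 50 after a start, for 8 of the 9 members, with 2 windows for Hoxa10. In the windows of Hoxa5, Hoxa9 and Hoxa10 capitals mark CpG dinucleotides, and in that of Hoxa2 they mark the motif TGATNNAT, a shape bound by Hox and Pbx proteins together. All are read 5′ to 3′ on the minus strand.
Hoxa2, chr6:52164782-52165081: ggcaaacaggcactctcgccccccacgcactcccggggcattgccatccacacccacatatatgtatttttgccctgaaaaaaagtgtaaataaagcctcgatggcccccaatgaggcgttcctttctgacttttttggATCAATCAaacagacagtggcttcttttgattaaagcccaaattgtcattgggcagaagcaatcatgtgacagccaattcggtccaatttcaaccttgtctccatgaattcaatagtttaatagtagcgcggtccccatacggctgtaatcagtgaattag
Hoxa5, chr6:52204538-52204837: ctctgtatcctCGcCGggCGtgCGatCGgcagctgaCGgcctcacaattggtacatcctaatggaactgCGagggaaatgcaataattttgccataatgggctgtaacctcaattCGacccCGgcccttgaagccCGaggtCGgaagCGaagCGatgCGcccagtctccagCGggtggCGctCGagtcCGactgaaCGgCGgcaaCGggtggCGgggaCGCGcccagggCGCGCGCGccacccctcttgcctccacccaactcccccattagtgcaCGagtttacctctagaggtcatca
Hoxa9, chr6:52227321-52227620: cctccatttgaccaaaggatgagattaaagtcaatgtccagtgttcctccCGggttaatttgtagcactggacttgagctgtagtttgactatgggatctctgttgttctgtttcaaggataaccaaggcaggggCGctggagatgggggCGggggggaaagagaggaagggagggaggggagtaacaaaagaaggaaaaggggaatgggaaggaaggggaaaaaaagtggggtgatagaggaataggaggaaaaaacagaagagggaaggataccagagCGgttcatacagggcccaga
Hoxa10, chr6:52240805-52241104: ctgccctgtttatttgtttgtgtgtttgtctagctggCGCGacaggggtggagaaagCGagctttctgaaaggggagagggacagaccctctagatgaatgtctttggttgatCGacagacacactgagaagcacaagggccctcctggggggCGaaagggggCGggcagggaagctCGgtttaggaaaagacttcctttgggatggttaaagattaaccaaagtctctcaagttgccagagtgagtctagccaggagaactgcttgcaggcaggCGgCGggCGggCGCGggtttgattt
The Hoxa5 window held 29 CpG dinucleotides, more than 87.1% of the 32817 promoters in the same table, whose median was 7. The window of Hoxa9, the member with the most counts, held 4, more than 31.4% of promoters. This window lies inside the annotated span of Hoxa9, which has 5 transcripts, and which start was used in these cells was not tested. The Hoxa10 window shown held 12 and the other Hoxa10 window 21. The remaining members lay between 9 CpG dinucleotides in Hoxa2 and Hoxa7 and 26 in Hoxa6. Searched on both strands, TGATNNAT occurred once in Hoxa2 and in no other member's window, against 8.9% of all promoters. TTTAT, the core letters of a site that Hox proteins of the Hoxa9 to Hoxa13 type bind, occurred in 4 of the 9 windows (Hoxa2, Hoxa7 and both of Hoxa10), against 40.0% of all promoters. The 2 motifs can share letters but did not in Hoxa2, and such matches describe letters only.

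Across the whole comparison, 4078 of the 11953 tested genes passed the threshold (adjusted p under 0.05 from edgeR), 34.1% of them, with 17.9% higher and 16.3% lower in NA MPs. Sequencing depth ran from 5557718 to 8106140 counts a sample, with medians of 6324554.5 in NA MPs and 6636195 in WT MPs, and at this depth a count of 0 allows up to 3 counts, or 0.370 to 0.540 CPM (the usual scaling of counts to a common library total), a limit for counting error only. All other CPM values were normalised by edgeR's TMM method. Every pair of samples within a group differed by more than sampling noise (their chi-square, divided by its degrees of freedom, was 1.196 to 2.694). No sample was therefore counted as the same library sequenced again, but this cannot show whether samples came from separate mice. The groups parted on the first principal component, with 66.1% of the variance, and NA MP replicate 1 stood apart from the other NA MPs on the second. Kit, the receptor used in the sort, was at 447 ± 20.3 CPM (SD, n = 4) in NA MPs, and in WT MPs 456 ± 6.39 (SD, n = 5), and Mpo, a neutrophil granule enzyme made by myeloid progenitors, was at 16200 ± 671 CPM and 15600 ± 265 CPM, while Ly6a, which encodes Sca1, was at 3.22 and 2.74 CPM.

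Both genes that contribute to the fusion were higher in every NA MP sample. Nup98, which encodes a nucleoporin of the nuclear pore, stood at 145, 127, 150 and 155 CPM in NA MPs and at 85.1, 85.5, 94.3, 94.1 and 91.0 CPM in WT MPs. Its log2 fold change was 0.68 ± 0.048 (SE, edgeR adjusted p = 4.84e-14). Hoxa10, a regulator of haematopoietic and uterine development, stood at 23.4, 18.7, 18.2 and 17.5 CPM in NA MPs and at 1.13, 1.80, 0.918, 1.35 and 0.840 CPM in WT MPs. The lowest NA MP sample was thus 9.71 times the highest WT MP sample. The log2 fold change of Hoxa10 was 3.96 ± 0.17 (SE, edgeR adjusted p = 8.74e-26), and 19 of the 11953 tested genes, 0.159%, had a rise as large or larger. The table has no row for the fusion, so reads of the fusion transcript and of endogenous Hoxa10 or Nup98 cannot be told apart.

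The 7 tested members of the cluster, from Hoxa2 to Hoxa10, were each higher in NA MPs than in WT MPs. The filter required a level of 1.51 CPM in at least 4 samples, which Hoxa2 and Hoxa10 met only through NA MPs, so the filter favoured a rise in these 2, whereas the other 5 met it in WT MPs alone. Each rose by more than 2-fold, with fitted folds from 3.22 for Hoxa7 to 15.5 for Hoxa10, where 2.63% of all tested genes passed the threshold with a rise over 2-fold. For each of the 7, all NA MP samples lay above all WT MP samples, which was so for 14.2% of tested genes (p = 0.0159 for each gene by an exact two-sided permutation test, the lowest p possible with groups of 4 and 5). Without NA MP replicate 1, the 7 were still higher, with log2 fold changes from 1.65 to 3.86. Hoxa4 lay in the middle of these genes and did not pass the filter, with levels that overlapped between the groups. Hoxa11, the next gene beyond Hoxa10, was at or near 0 in all 9 samples. In these bulk samples a different share of expressing cells and a different amount of RNA per cell cannot be told apart.

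**Figure D1:**
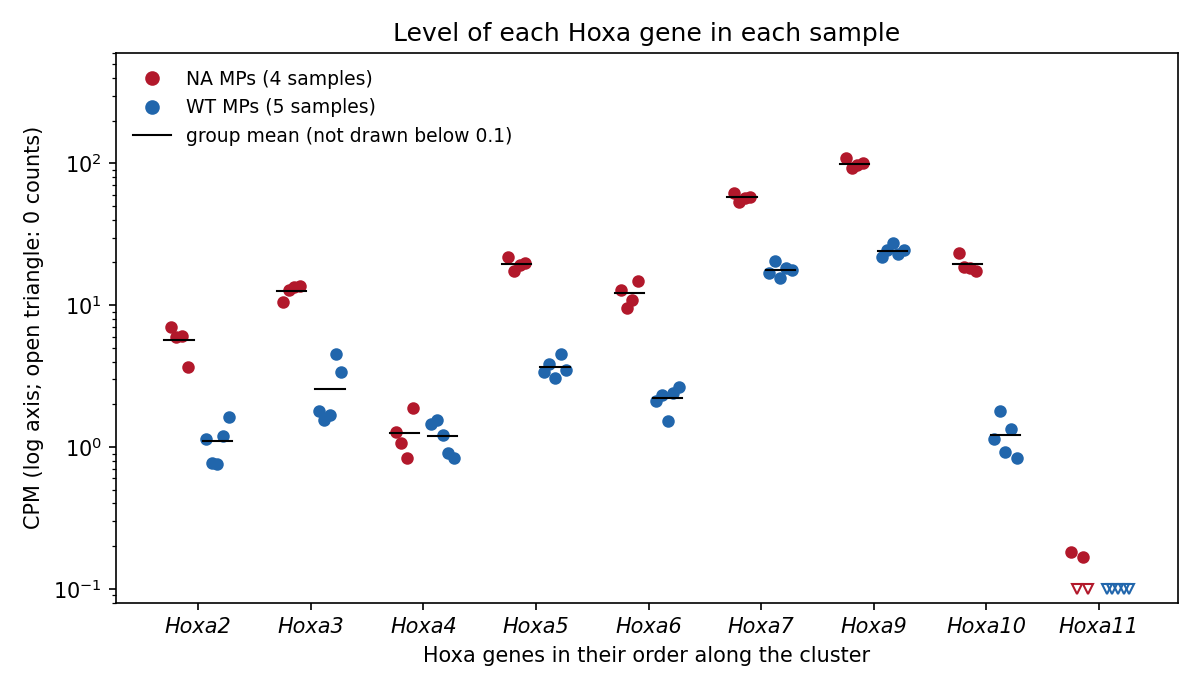
Level of the 9 Hoxa genes, in their order along the cluster, in each sample, as CPM on a log axis, with NA MPs in red (4 samples), WT MPs in blue (5 samples) and group means as black lines; open triangles mark samples with 0 counts. The groups lie apart for all genes except Hoxa4, where they overlap, and Hoxa11, where only 2 NA MP samples hold a count.

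Hoxa2 and Hoxa3 are the anterior members of the set, best known for patterning the hindbrain, the pharyngeal arches and, for Hoxa3, the thymus and parathyroid. Hoxa2 stood at 6.97, 5.94, 6.05 and 3.69 CPM in NA MPs and at 1.13, 0.771, 0.765, 1.20 and 1.62 CPM in WT MPs. The groups did not overlap, although NA MP replicate 4 was lower than the other NA MPs. The log2 fold change of Hoxa2 was 2.30 ± 0.25 (SE, edgeR adjusted p = 1.09e-10). Hoxa3 stood at 10.6, 12.8, 13.5 and 13.7 CPM in NA MPs and at 1.78, 1.54, 1.68, 4.51 and 3.36 CPM in WT MPs. WT MP replicates 4 and 5 were above the other WT MPs, with 30 and 24 counts against 11, 12 and 11. The coefficient of variation of Hoxa3 among WT MPs was 50.8%, against 23.8% from counting alone, whereas among NA MPs it was 11.4% against 11.0%. The log2 fold change of Hoxa3 was 2.30 ± 0.19 (SE, edgeR adjusted p = 1.01e-11).

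Hoxa4, a member of the paralogue group known for patterning the neck vertebrae, was the exception between Hoxa3 and Hoxa5. It stood at 1.27, 1.07, 0.841 and 1.87 CPM in NA MPs and at 1.46, 1.54, 1.22, 0.902 and 0.840 CPM in WT MPs. The groups overlapped, with means of 1.26 ± 0.442 CPM (SD, n = 4) and 1.19 ± 0.317 CPM (SD, n = 5) that rested on 34 and 41 counts in all (exact two-sided permutation test, p = 0.825). In an edgeR fit without the filter the log2 fold change was 0.11, with a 95% interval from -0.60 to 0.83 and an adjusted p of 0.875 from edgeR, so the largest rise within this interval was below that of every tested member. Within a sample, the counts of Hoxa5 were from 10.6 to 22.8 times those of Hoxa4 in NA MPs and from 2.33 to 5 times in WT MPs. The corresponding values for Hoxa3 over Hoxa4 were 7.33 to 16 times in NA MPs and 1 to 5 times in WT MPs. This contrast with the neighbours was picked out after the values were seen and was not tested.

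Hoxa5 and Hoxa6 lie next in the cluster. Hoxa5 is known for its part in lung and axial development and is expressed in blood progenitors, and Hoxa6 is a close neighbour with a described role in the growth of progenitor cells. Hoxa5 stood at 21.9, 17.5, 19.2 and 19.8 CPM in NA MPs and at 3.40, 3.86, 3.06, 4.51 and 3.5 CPM in WT MPs. Its lowest NA MP sample was 3.89 times its highest WT MP sample. The log2 fold change of Hoxa5 was 2.41 ± 0.13 (SE, edgeR adjusted p = 9.8e-22). Hoxa6 stood at 12.9, 9.60, 10.9 and 14.8 CPM in NA MPs and at 2.11, 2.31, 1.53, 2.40 and 2.66 CPM in WT MPs. Again no NA MP sample came near the WT MPs, and the log2 fold change was 2.45 ± 0.17 (SE, edgeR adjusted p = 5.65e-17). These 2 genes share no exons with other genes.

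Hoxa7 and Hoxa9 held most of the counts of the cluster. Hoxa7 is a target of MLL (Kmt2a) together with Hoxa9, and Hoxa9 is the member best known for sustaining stem and progenitor cells. Hoxa7 stood at 61.8, 53.7, 57.2 and 57.6 CPM in NA MPs and at 16.9, 20.4, 15.6, 18.2 and 17.6 CPM in WT MPs. With a log2 fold change of 1.69 ± 0.072 (SE, edgeR adjusted p = 2.78e-26), it had the smallest fitted change among the tested members. Hoxa9 stood at 109, 92.1, 97.5 and 100 CPM in NA MPs and at 22.0, 24.4, 27.4, 23 and 24.5 CPM in WT MPs. The spread of Hoxa9 within a group was small, at 6.89% of the mean in NA MPs and 8.46% in WT MPs. The log2 fold change of Hoxa9 was 2.03 ± 0.061 (SE, edgeR adjusted p = 5.89e-33), and 0.970% of tested genes rose by as much or more.

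**Figure D2:**
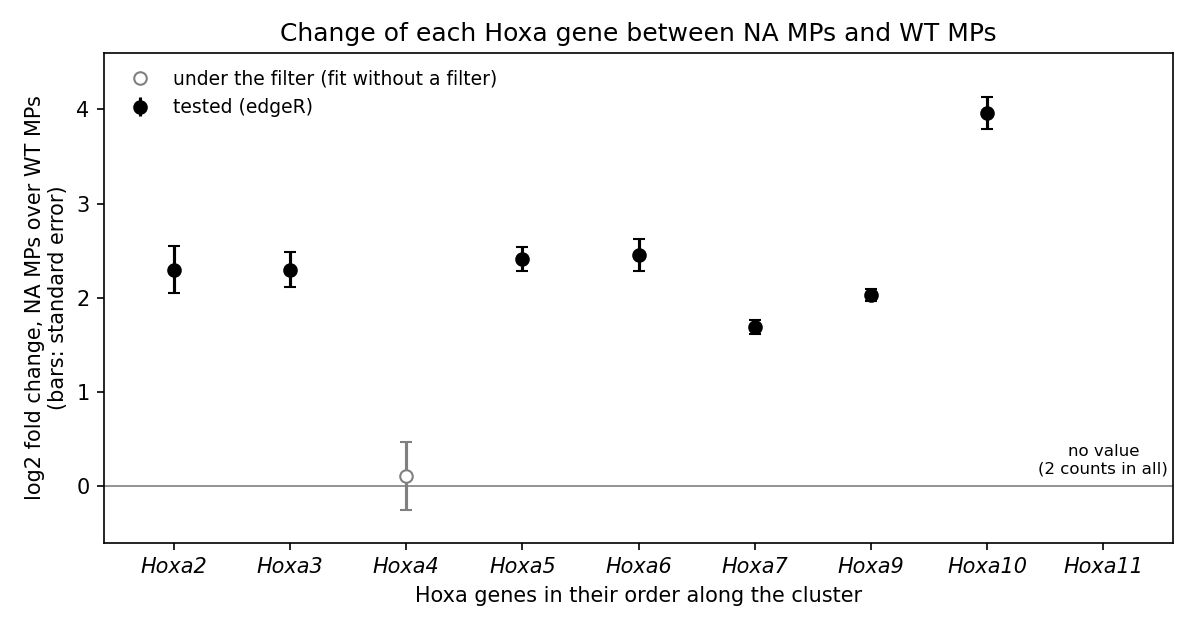
Log2 fold change of each Hoxa gene between NA MPs and WT MPs, in the order of the genes, with standard errors as bars; filled points are from the edgeR test and the open point is Hoxa4 from the fit without a filter. The 7 tested genes lie between 1.69 and 3.96, Hoxa4 lies at 0.11 and Hoxa11 has no value.

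Almost no counts were found beyond Hoxa10. Hoxa11, a gene of limb and urogenital patterning, had 1 count in NA MP replicate 1, 1 in NA MP replicate 3 and 0 in the other 7 samples, so no fold change is given. Hoxa13, the last Hoxa gene, was at 0 in all 9 samples, as were the long noncoding RNA Hottip beside it and Evx1 beyond it. The counts of the members added up to 228 ± 15.0 CPM (SD, n = 4) in NA MPs, and in WT MPs 53.9 ± 2.86 CPM (SD, n = 5), a ratio of 4.23. Without Hoxa10, the ratio was 3.95.

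Transcripts from the opposite strand and from within the cluster were scarce. Hoxaas3, an antisense transcript that overlaps Hoxa3 and Hoxa7, was the only one to pass the filter, which it did through NA MPs, with 3.80, 1.98, 2.69 and 2.74 CPM in NA MPs and 1.13, 1.03, 0.459, 0.902 and 1.12 CPM in WT MPs. The groups did not overlap, and its log2 fold change was 1.55 ± 0.30 (SE, edgeR adjusted p = 4.7e-05). Hoxaas3 shares 30.7% of its exonic bases with genes of the other strand, so its counts are uncertain. 5730596B20Rik, whose exons overlap Hoxa3, had 8, 19, 3 and 17 counts in NA MPs and 4, 3, 5, 2 and 6 in WT MPs. These groups overlapped, and the gene was under the filter, while DESeq2 gave a log2 fold change of 1.59 (adjusted p = 0.0224 from DESeq2). Hotairm1, a noncoding RNA known from myeloid cells, had 7, 3, 4 and 7 counts in NA MPs and 4, 2, 0, 1 and 4 in WT MPs. Hoxaas2, Gm15050 and Hoxa11os had at most 3 counts in any sample. Mir196b, a microRNA gene within Hoxa9, was at 0 in all samples of these polyA RNA libraries.

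Compared per length, the level was highest at Hoxa7 and Hoxa9 in both groups and lower at both ends of the cluster. In NA MPs the order by CPM per kilobase of exon was Hoxa7 (20.0), Hoxa9 (17.9), Hoxa6 (13.8), Hoxa5 (10.4), Hoxa10 (5.94), Hoxa2 (3.19), Hoxa3 (2.10), Hoxa4 (0.792) and Hoxa11 (0.0382). The sample ranges of Hoxa7 and Hoxa9, Hoxa9 and Hoxa6, Hoxa6 and Hoxa5, and Hoxa2 and Hoxa3 overlapped, so these neighbours in the order were not separated. In WT MPs the order by CPM per kilobase was Hoxa7 (6.17), Hoxa9 (4.35), Hoxa6 (2.52), Hoxa5 (1.95), Hoxa4 (0.749), Hoxa2 (0.619), Hoxa3 (0.428), Hoxa10 (0.370) and Hoxa11 (0). Here the ranges overlapped between Hoxa6 and Hoxa5 and at each step from Hoxa4 to Hoxa10. The first 4 places were the same in both groups. Hoxa10, whose counts in NA MPs may include reads of the fusion, stood in place 5 in NA MPs and in place 8 in WT MPs. Hoxa4 stood in place 8 in NA MPs and in place 5 in WT MPs. With the length of the longest transcript in place of all exons, Hoxa9 preceded Hoxa7 in NA MPs, at 30.9 and 28.3 CPM per kilobase.

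**Figure D3:**
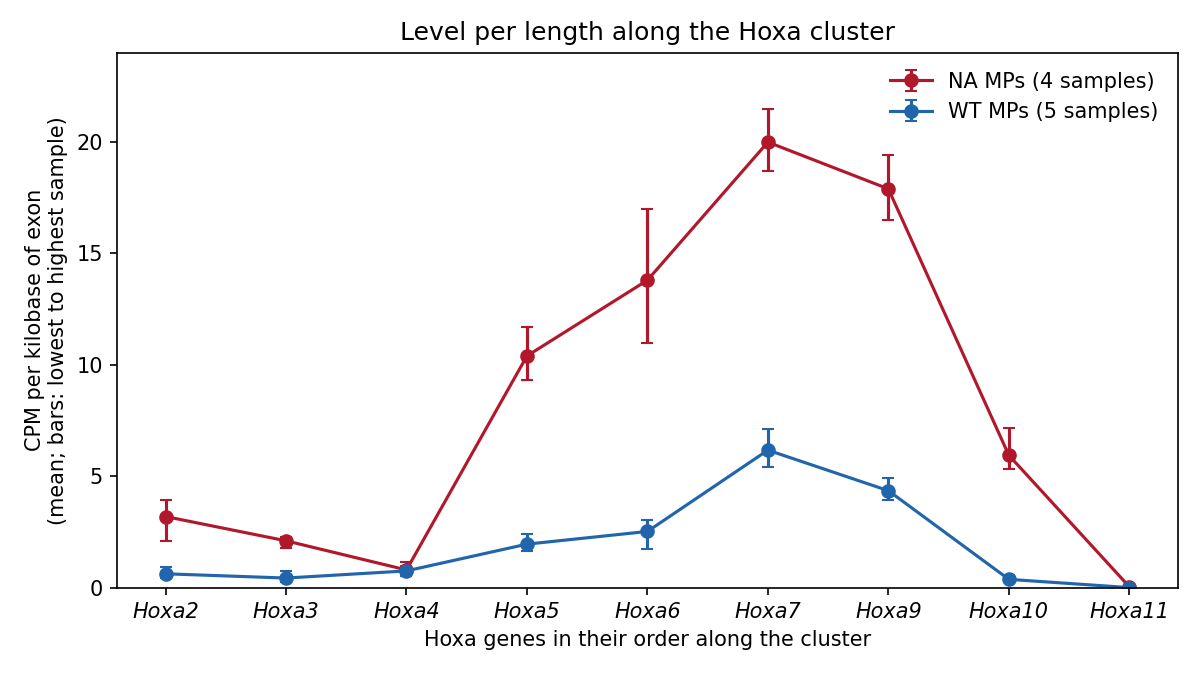
Level of the 9 Hoxa genes per length, as CPM per kilobase of exon, in their order along the cluster, with points as group means and bars from the lowest to the highest sample. Both NA MPs (red, 4 samples) and WT MPs (blue, 5 samples) peak at Hoxa7, at 20.0 and 6.17, and fall to Hoxa11, while a dip at Hoxa4 is seen in NA MPs.

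The share that each member took of the cluster's counts shows how the make-up of the cluster differed. Hoxa9 took 43.7% ± 0.136 (SD, n = 4) in NA MPs, and in WT MPs 45.0% ± 4.38 (SD, n = 5), and the samples overlapped. Hoxa10 took 8.51% ± 0.808 in NA MPs and 2.23% ± 0.641 in WT MPs, and Hoxa5 8.59% ± 0.234 and 6.78% ± 0.807, each without overlap. Hoxa7 took 25.3% ± 0.274 in NA MPs and 32.9% ± 2.27 in WT MPs, and Hoxa4 0.552% ± 0.186 and 2.23% ± 0.637, so both had the smaller share in every NA MP sample. The Hoxa10 counts in NA MPs may include reads of the fusion. With Hoxa10 left out of the sum, Hoxa7 still took 27.6% in NA MPs and 33.6% in WT MPs, without overlap.

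Ratios of neighbouring genes within a sample, which do not depend on normalisation between samples, were compared for the 6 neighbouring pairs of tested members. From Hoxa2 to Hoxa6 no difference in these ratios was detected, but the pairs pass over Hoxa4, which was under the filter. The log2 ratio differed between NA MPs and WT MPs by 0.09 for Hoxa3 over Hoxa2, by 0.02 for Hoxa5 over Hoxa3 and by 0.01 for Hoxa6 over Hoxa5 (exact two-sided permutation tests, adjusted p = 0.952 for each), with samples that overlapped. The spread behind these differences was wide, with standard deviations from 0.20 to 0.56. Hoxa7 over Hoxa6 was 2.26 ± 0.23 (SD, n = 4) in NA MPs, and in WT MPs 2.99 ± 0.22 (SD, n = 5), a difference of -0.72 without overlap (exact two-sided permutation test, p = 0.0159, adjusted p = 0.0476 over 6 pairs). The difference for Hoxa9 over Hoxa7 was 0.34, with WT MP replicate 3 among the NA MP values (exact two-sided permutation test, p = 0.0635, adjusted p = 0.127), and 0.43 without that sample (exact adjusted p = 0.0571). Hoxa10 over Hoxa9 was -2.36 ± 0.14 in NA MPs and -4.29 ± 0.47 in WT MPs, higher by 1.93 without overlap (exact two-sided permutation test, p = 0.0159, adjusted p = 0.0476). In these samples Hoxa7 thus changed less than Hoxa6. The adjusted p for Hoxa7 over Hoxa6 passed the threshold only because Hoxa10 over Hoxa9 reached the same lowest possible p. The counts of Hoxa10 changed more than those of Hoxa9, but the Hoxa10 counts in NA MPs may include reads of the fusion. Hoxa10 also met the filter only through NA MPs, so the test of Hoxa10 over Hoxa9 was tilted towards a rise. Leaving out any 1 sample kept the direction of both differences, but their adjusted p then could not pass the threshold, since fewer samples raise the smallest p that is possible.

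**Figure D4:**
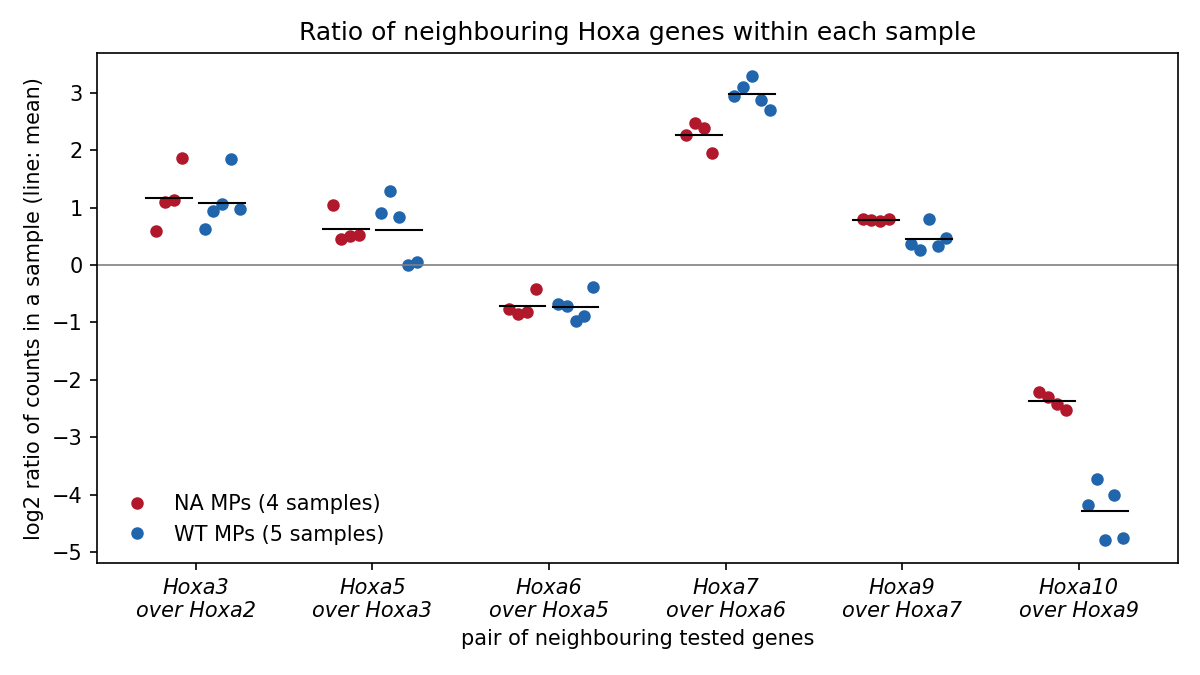
Log2 ratio of counts between neighbouring tested Hoxa genes within each sample, for 6 pairs in their order along the cluster, with NA MPs in red (4 samples), WT MPs in blue (5 samples) and means as black lines. The groups overlap for the first 3 pairs and for Hoxa9 over Hoxa7, and lie apart for Hoxa7 over Hoxa6 and for Hoxa10 over Hoxa9. Counts of Hoxa10 in NA MPs may include reads of the fusion.

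The other Hox clusters were followed for comparison with lists that were made with earlier results of these data known. In the Hoxb cluster, 7 of 10 genes were tested, of which 6 were higher and 1 was lower in NA MPs. Of all tested genes, 17.9% were higher and 16.3% lower. The Hoxb counts follow in large part from the filter, which 5 of the 6 met only through NA MPs and the lower one only through WT MPs. The samples of the lower Hoxb gene overlapped between the groups, and DESeq2 did not call it. Hoxb4, a regulator of stem cell expansion and the one Hoxb gene that met the filter in both groups, was at 20.6 ± 0.752 CPM (SD, n = 4) in NA MPs, and in WT MPs 9.95 ± 1.39 CPM (SD, n = 5), a log2 fold change of 1.06 ± 0.10 (SE, edgeR adjusted p = 3.11e-12). Summed over its genes, the Hoxb cluster reached 43.5 to 48.3 CPM in NA MPs and 11.4 to 14.7 CPM in WT MPs, below the Hoxa members. None of the 9 Hoxc genes and none of the 8 Hoxd genes found was tested, and their sums did not exceed 0.486 CPM in any sample.

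Hox proteins bind DNA with cofactors of the TALE class. Of 8 tested TALE genes, 3 were higher and 2 lower in NA MPs, 62.5% beside 34.1% of all tested genes, and the median log2 fold change was 0.04 beside -0.001 over all tested genes. With DESeq2 2 TALE genes were higher and 1 was lower. Pbx3, a partner of Hoxa9 in leukaemia, rose from 4.98 ± 0.749 CPM (SD, n = 5) to 41.2 ± 3.58 CPM (SD, n = 4), a log2 fold change of 3.03 ± 0.10 (SE, edgeR adjusted p = 7.48e-31). Meis1, the other well-known partner of Hoxa9, was at 40.5 ± 3.96 CPM in NA MPs and 40.0 ± 3.23 CPM in WT MPs (a log2 difference of 0.01 ± 0.068 SE, edgeR adjusted p = 0.946). Trithorax and Polycomb group proteins are known to keep Hox genes active or silent, respectively. Of 19 trithorax side genes, all tested, 1 was higher and 7 were lower in NA MPs (42.1% in either direction, beside 34.1%), with a median of -0.08. Kmt2a, which encodes MLL, was at 221 ± 16.1 CPM in NA MPs and 235 ± 11.1 CPM in WT MPs (edgeR adjusted p = 0.101), and the histone demethylase gene Kdm6b, the one that rose, had a log2 fold change of 0.49. Of 20 Polycomb side genes, 6 were higher and 1 was lower, with a median of 0.04 and no rise over 2-fold. This share of 35.0% was close to the 34.1% of all tested genes, and DESeq2 called 3 higher and 0 lower. Ezh2, the main methyltransferase of this group, was at 181 ± 1.63 CPM in NA MPs and 186 ± 4.14 CPM in WT MPs (edgeR adjusted p = 0.379). Of 11 tested genes that are described as regulated by Hoxa9 in blood cells, 7 were higher and 1 was lower, where 17.9% of all tested genes were higher and 16.3% lower, and the median log2 fold change was 0.42. Mecom, a stem cell transcription factor gene, led them with 3.31 ± 0.13 (SE, edgeR adjusted p = 3.58e-27), and Myb was the one that fell, by 0.09.

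Markers of other cell types that a Lin-c-kit+Sca1- gate could hold also moved between the groups, and their part in the change of the Hoxa genes was not tested. The counts below stand beside the 17.9% of all tested genes that were higher and the 16.3% that were lower. The 12 tested lymphoid markers were each higher in NA MPs, 3 of them (Il7r, Ebf1 and Pax5) having met the filter only through NA MPs, and Cd3e and Cd3g, which define T cells, were at 0. The summed level of the 14 lymphoid genes ran from 218 to 382 CPM in NA MPs and from 56.6 to 61.2 CPM in WT MPs. Of 10 tested erythroid markers, 9 were lower and none was higher, with sums from 787 to 1000.0 CPM in NA MPs and from 1420 to 1580 CPM in WT MPs. Of 7 tested mast cell and basophil markers, 6 were higher (sums from 409 to 488 CPM against 218 to 238). Of these 6, 1 met the filter only through NA MPs. Of 10 tested stem cell markers, 5 were higher and 2 lower (sums from 776 to 898 CPM against 733 to 749). Among the 5, 1 met the filter only through NA MPs, and Procr and Fgd5 were under the filter. Kit, the sort marker, was the largest part of the stem cell sums, at 447 CPM in NA MPs and 456 CPM in WT MPs. Some stem cell markers, among them Hoxb5, Mecom and Meis1, are also on the lists above, so the lists are not separate observations. Of 6 tested megakaryocyte markers, 1 was higher and 2 were lower (sums from 212 to 245 CPM against 210 to 235). Of 10 granulocyte-monocyte and neutrophil markers, 6 were higher and 2 lower. The median log2 fold change of these markers was 0.07, and their sums ran from 25000 to 27700 CPM in NA MPs and from 24400 to 25300 CPM in WT MPs.

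The genes whose pattern over the 9 samples was most like that of Hoxa9 were found by the root mean square difference of their log2 CPM, each gene centred on its own mean. The nearest was Padi4, which encodes an enzyme that turns arginine into citrulline, at a difference of 0.144, with 99.7 ± 2.79 CPM in NA MPs and 25.0 ± 2.95 CPM in WT MPs. Inppl1, a lipid phosphatase gene, followed at 0.147, with 31.9 ± 1.87 CPM in NA MPs and 7.59 ± 1.03 CPM in WT MPs. The next were Gzmb (0.202), which encodes granzyme B, Ctla2a (0.212), which encodes an inhibitor of cysteine proteases, and H2afy2 (0.220), which encodes a macroH2A histone. Among the members, Hoxa7 was in place 6 at 0.222 and Hoxa5 in place 9 at 0.240, whereas Hoxa10 was in place 1563 at 0.896. This measure is a description over 9 samples in 2 groups, and it places any gene with a similar fold change close to Hoxa9.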

How the data were processed

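RNA-seq libraries of 4 NA MP and 5 WT MP samples were prepared by the authors from polyA RNA and sequenced, and reads were quantified with RSEM on mm10 (the annotation, aligner and strand setting are not given in the sources used here). The file is named as raw counts, but its values are RSEM expected counts that the authors deposited after division by 1 factor per sample. Low values of a sample are whole multiples of a step from 0.826559 to 1.200436, and 97.38% to 97.72% of values were whole (within 0.01) after division by it. The steps match median-of-ratios size factors, the normalisation of DESeq2, within 0.236%. The expected counts were therefore recovered by undoing this factor and rounded, which departs from the planned use of the values as they stand. Gene symbols matched 32916 of 37980 genes.

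In R 4.3.3, edgeR 4.0.16 (TMM, filterByExpr with a minimum count of 10, robust quasi-likelihood test, Benjamini-Hochberg adjustment over 11953 genes, threshold 0.05) was the main test, with a common biological coefficient of variation of 3.49%. Each edgeR SE was taken as the absolute log2 fold change divided by the square root of the F statistic of the test. The 95% interval of Hoxa4 was built from such an SE by a normal approximation. DESeq2 1.42.0 and limma 3.58.1 (log2 of the deposited values plus 1) were alternatives. Within-sample log2 ratios used a prior of 0.5 counts and exact two-sided permutation tests over all 126 assignments of the samples to groups of 4 and 5, adjusted over 6 pairs. Lengths, overlaps and coordinates came from GENCODE M21, and promoters from RefSeq.

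The members, lists and tests were chosen with earlier results of these data known. Named genes are the members, other genes of the cluster with any count, Nup98, up to 2 risen and 2 fallen genes per list past the threshold, Kmt2a, Ezh2, Meis1 and Pbx3, and the 5 genes most like Hoxa9. Kit, Mpo, Ly6a, genes at 0, Hoxb4 and 3 lymphoid genes were named besides, after their values were seen, to describe the sort, the ends of the cluster and the filter. The paper's other sequenced cells were not analysed here.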

Additional observations from a re-analysis of the deposited data

Results flagged for a closer look

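Of 45 sets of 4 or 5 samples examined (genes of the cluster, Nup98 and ratios of neighbours, each in 1 group), 4 had a sample far from the rest, where about 1 in 20 is set apart by chance, or 2.2 here. The log2 ratio of Hoxa5 over Hoxa3 was 1.05 in NA MP replicate 1 and between 0.451 and 0.53 in the other NA MPs, and Hoxa3 was lowest in that sample. The other 3 rest on 1 or 2 counts in a single sample where the rest of the group had 0. These were Hoxaas2 in WT MP replicate 3 (0.306 CPM), Gm15050 in WT MP replicate 1 (0.162 CPM) and Hoxa11os in NA MP replicate 1 (0.181 CPM).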

How the results depend on the processing

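The log2 fold changes of the 7 tested members kept their direction and stayed past the threshold in each of the 19 alternative fits that tested them, from 1.64 to 1.75 for Hoxa7, 2.14 to 2.59 for Hoxa3 and 3.84 to 4.16 for Hoxa10, and all 7 were called except under the filter of at least 10 counts in every sample, where Hoxa2 and Hoxa10 were not tested. The number of genes past the threshold was 4078, from 3638 to 3959 when 1 sample was left out, and 3043 with DESeq2. Using the values as deposited (4093 genes) or limma (4107 genes) was chosen after seeing the data. Replicate numbers 1 to 4 occur in both groups, but same-numbered samples did not deviate together (correlations of 0.008, 0.006, -0.019 and 0.053), so the numbers do not pair the samples. With the replicate block, 3741 genes passed the threshold and the log2 fold changes of the members stayed past it.

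For the 6 pairs of neighbours, leaving out each sample gave differences from -0.14 to 0.28 for Hoxa3 over Hoxa2, -0.13 to 0.19 for Hoxa5 over Hoxa3 and -0.09 to 0.10 for Hoxa6 over Hoxa5, so these had no fixed direction, and a prior of 2 counts gave -0.03 for the last. The ranges were -0.79 to -0.62 for Hoxa7 over Hoxa6 and 1.80 to 2.07 for Hoxa10 over Hoxa9, past the threshold in none of these tests, as fewer samples raise the smallest possible p. Hoxa9 over Hoxa7 ran from 0.29 to 0.43, and without WT MP replicate 3 its adjusted p was 0.0571 by the exact permutation test, the same as that of Hoxa7 over Hoxa6 and Hoxa10 over Hoxa9 without this sample. Lengths of the longest transcript moved Hoxa9 to place 1, Hoxa7 to 2, Hoxa3 to 6 and Hoxa2 to 7 in NA MPs, and Hoxa3 to place 5, Hoxa4 to 6 and Hoxa2 to 7 in WT MPs. Hoxa6, Hoxa5 and Hoxa10, the 3 members without shared exons, kept this order in both groups. Of 34 recomputed shares 17 moved by more than the spread between samples, 14 of them per kilobase.

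Of 532 recomputed counts of list genes, 505 stayed within 1.5 times. At least 10 counts in every sample left 0 of the other Hoxa cluster genes and 1 Hoxb gene higher, 0 Hoxb genes lower and 7 lymphoid markers higher, as fewer genes were tested. DESeq2 called 0 Hoxb and 1 TALE gene lower, 3 Polycomb genes higher and 0 lower, and 1 neutrophil marker lower. The replicate block gave 1 TALE, 0 Polycomb and 2 Hoxa9-regulated genes lower. Polycomb genes lower numbered 2 with library size only and with limma, and 1 mast cell marker was lower without the robust option. Leaving out 1 sample gave 0 to 1 Hoxb, 1 to 2 TALE, 0 to 1 Polycomb and 1 to 2 neutrophil genes lower. The cause of these shifts was not tested. Depth limits Hoxa4, Hoxa11 and the noncoding genes of the cluster, which had few counts in either group.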
